A study of Mus musculus with 310 samples.

Results

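The AP-1 genes described here are the Fos-family genes Fos, Fosb and Fosl2, the Jun-family genes Jun, Junb and Jund, and the related gene Atf3. They were taken by name from a table of 14068 genes, and all 7 were present. The table holds 310 libraries of full-length single-cell RNA-seq, called cells here, from keratinocytes sorted as tomato-positive from tail skin of mice of a CBA C57BL/6 mixed background. All mice carried the Lrig1-EGFP-ires-CreERT2 allele together with a Rosa26-fl/STOP/fl-tdTomato reporter and received hydroxytamoxifen once on the tail, so that Lrig1-expressing cells of the hair follicle junctional zone and their descendants are marked. Group 38w holds 145 cells of replicates RepI (70 cells) and RepL (75 cells), and group 38wUW holds 165 cells of RepM (82 cells) and RepN (83 cells).

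The number in both group names is a time in weeks. What UW stands for and which group was wounded are not stated in the labels, and the treatment label, which speaks of wounding, is the same for every cell. Differences are therefore given as 38w minus 38wUW, with no reading of either group as injured. RepI was spread over plates C114 and C118, while RepL, RepM and RepN each filled 1 plate (C119, C128 and C129), so plate and replicate cannot be told apart for these 3, and no plate holds both groups. The study's methods describe independent experiments, each with several biological replicates, but the labels do not tie RepI, RepL, RepM and RepN to animals, so p-values measure the spread between 2 labelled replicates a group.

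The 310 libraries came from 299 wells. On C114, 11 wells gave 2 libraries each, of which 1 carries the suffix IDTILL in its name, and 2 further libraries with this suffix stand alone. For 10 of the 11 pairs, the library with the suffix was more like its partner from the same well than like any other library (Spearman's rho of 0.34 to 0.56 over the 11 pairs, against a median of 0.37 among all pairs on C114). The labels do not say whether such a pair is 1 cell. A library on C119 and another on C129 carry the suffix MBULK, which the labels do not explain. Values without these 15 libraries are given beside the main results.

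AP-1 is a dimer of basic leucine zipper proteins: a Fos protein binds DNA only together with a partner such as a Jun protein, whereas Jun proteins can also pair with each other. In the epidermis AP-1 takes part in proliferation, differentiation and wound repair. Fos, Fosb, Jun, Junb and Atf3 belong to the immediate-early genes, which growth factors, injury, mechanical stress and the enzymatic release of cells from tissue switch on without new protein synthesis, whereas Fosl2 and Jund are usually expressed more steadily. The cells here had been freed from the skin by trypsin and EDTA overnight in the cold.

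The promoter stretches of the 5 immediate-early members are shown because TGACG, the core of the site bound by CREB and ATF proteins, lies in 4 of them and the related TGACATCA in that of Jun. Each line gives 120 bases of the gene's own strand that end just before the RefSeq start (GRCm38.p6), with the match in capitals.
Fos: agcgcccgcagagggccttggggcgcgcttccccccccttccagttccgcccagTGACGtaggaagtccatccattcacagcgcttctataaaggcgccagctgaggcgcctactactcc
Fosb: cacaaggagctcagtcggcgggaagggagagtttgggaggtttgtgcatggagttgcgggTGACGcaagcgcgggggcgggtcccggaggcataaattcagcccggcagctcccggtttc
Jun: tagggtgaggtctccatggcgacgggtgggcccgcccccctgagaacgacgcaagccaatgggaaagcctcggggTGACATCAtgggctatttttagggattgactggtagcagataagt
Junb: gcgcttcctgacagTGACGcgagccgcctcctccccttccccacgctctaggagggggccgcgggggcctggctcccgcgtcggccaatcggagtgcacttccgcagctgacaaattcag
Atf3: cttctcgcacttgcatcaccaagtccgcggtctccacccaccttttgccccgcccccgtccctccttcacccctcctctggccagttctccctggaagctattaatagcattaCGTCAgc
The stretches lie at chr12:85473770-85473889 on the plus strand for Fos and, on the minus strand, at chr7:19310046-19310165 for Fosb, chr4:95052223-95052342 for Jun, chr8:84978749-84978868 for Junb and chr1:191183334-191183453 for Atf3.

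TGACG begins 66 bases before the start of Fos, 60 before that of Fosb and 106 before that of Junb, and in Atf3 it lies 7 to 3 bases before the start on the opposite strand. The 3 motifs were searched on both strands, and the first occurs in 11.7% of 32851 RefSeq promoters of the same length. The Jun stretch holds TGACATCA 45 bases before the start, a motif found in 2.10% of these promoters. TGACTCA, the classical AP-1 site, was found in 0 of the 7 members' stretches and in 2.30% of all. None of the 3 motifs was found in the stretches of Fosl2 and Jund, whose RefSeq starts lie 671 and 1210 bases from the GENCODE gene starts, and the Atf3 stretch belongs to a start 34706 bases inside the GENCODE gene. These matches describe the sequence only.

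On the GRCm38 assembly the Fos gene spans chr12:85473890-85477273, Fosb chr7:19302696-19310051, Fosl2 chr5:32135801-32157842, Jun chr4:95049034-95052222, Junb chr8:84974484-84978718, Jund chr8:70698949-70700616 and Atf3 chr1:191170296-191218039, all protein-coding in the GENCODE annotation. The library kit does not mark strand, so reads from bases shared with a gene on the other strand cannot be assigned. Jund shares 877 of its 1668 exon bases with Gm11175, Jun 232 of 3189 with Junos, and Junb 173 of 2301 with Prdx2. Fos, Fosb, Fosl2 and Atf3 share no exon base with another gene.

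Fos was the member with the highest level. Per kilobase of exon, counts summed over all cells gave 819 CPM (the gene's reads per 1000000 reads) for Fos, 142 for Junb, 69.1 for Atf3, 65.0 for Jun, 12.5 for Fosb, 10.7 for Fosl2 and 8.0 for Jund. Jund rested on 453 reads in all, against 65402 for Fos, 11087 for Junb, 7041 for Jun, 5054 for Atf3, 3520 for Fosl2 and 2653 for Fosb. A read was found in 263 of the 310 cells for Junb, 251 for Fos, 224 for Jun, 187 for Fosl2, 186 for Fosb and 147 for Atf3, and in 41.6% of the cells for Jund.

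Cells held 11711 to 721564 reads, with a median of 61294. To compare shares of cells at 1 depth, each cell was thinned at random to 20000 reads, which 277 cells reached (68, 70, 64 and 75 in RepI, RepL, RepM and RepN). After thinning, 38wUW cells still held more genes, with medians of 2792 and 2462 a cell against 2273 and 2270 in the 38w replicates. The median mitochondrial share was 4.28% and 9.69% in the 38w replicates and 14.6% and 18.2% in the 38wUW replicates, and the cytosolic ribosomal protein share was 27.8% in RepI and 3.66% to 5.12% in the others. The 6 basal keratinocyte markers, among them Krt14 and Krt5, summed to 22751 and 7484 CPM in the 38w replicates and to 2988 and 2555 CPM in the 38wUW replicates. The part of these differences in the results below was not tested beyond the values given. Among marker lists of other cell types, 3 of 8 immune markers were in the table, with a summed level of 1.65 and 2.93 CPM in 38w and 1.47 and 1.31 in 38wUW, and the fibroblast markers (5 of 6) summed to 62.7 and 21.3 CPM in 38w and 17.5 and 8.42 in 38wUW. The melanocyte markers (2 of 4) summed to 7.11 and 15.1 CPM in 38w and 10.1 and 9.22 in 38wUW, and Krt8, the 1 of 4 Merkel cell markers in the table, to 5.14 and 0.517 CPM and 2.01 and 1.24 CPM. Of the 2 of 3 endothelial markers in the table, Pecam1 ranged from 1263 to 8773 CPM over the replicates whereas Kdr did not exceed 0.411 CPM and was at 0 in RepL.

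Fos, Fosb, Fosl2, Jun, Junb and Atf3 were found in a smaller share of cells in both 38w replicates than in either 38wUW replicate, and Jund was found in about the same share in all 4. Of the 7, Atf3 differed most, at 22.5% ± 3.54 of thinned cells in 38w against 60.9% ± 4.38 in 38wUW (mean ± SD, n = 2 replicates each). With 2 replicates a group, an exact two-sided permutation test cannot give a p below 0.333, so the test cannot pass 0.05 whatever the values. Without the 15 libraries with a suffix, the differences were -40.7 percentage points for Atf3, -29.8 for Fos, -29.7 for Fosb, -27.4 for Fosl2, -26.5 for Jun, -24.4 for Junb and -0.55 for Jund. Over the 7086 genes found in at least 10% of thinned cells, the median difference was -3.79 percentage points, and both 38wUW replicates lay above both 38w replicates for 37.1% of genes, against 6 of the 7 members (38.1% and 6 without the suffix libraries).

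Among the Fos-family genes, Fos, the prototype of the immediate-early genes, had a read in 64.7% and 64.3% of the thinned cells of RepI and RepL, and in 95.3% and 90.7% of those of RepM and RepN. Fosb, a close relative of Fos that is also rapidly induced, was found in 29.4%, 40%, 65.6% and 60% of the cells of these replicates. Fosl2, which encodes Fra-2, was found in 23.5%, 41.4%, 64.1% and 53.3%. For all 3 the groups did not overlap, and the differences were -28.5 percentage points for Fos, -28.1 for Fosb and -26.2 for Fosl2 (exact permutation p = 0.333 each). For Fosl2 this depended on the depth. In cells thinned to 10000 reads, which all 310 cells reached, it differed by -15.3 percentage points and its groups overlapped (exact permutation p = 0.667).

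Among the Jun-family genes, Jun, the most potent transactivator of the family, was found in 48.5% and 54.3% of the cells of the 38w replicates and in 79.7% and 72.0% of those of the 38wUW replicates, each in the order given above. Junb, which can restrain Jun, was found in 60.3%, 60%, 78.1% and 90.7%. The groups did not overlap, with differences of -24.4 percentage points for Jun and -24.2 for Junb (exact permutation p = 0.333 each). Jund, the steadily expressed member, was found in 23.5%, 22.9%, 21.9% and 20%, a difference of 2.26 percentage points the other way (exact permutation p = 0.333). Its 95% Wilson intervals, for example 15% to 34.9% in RepI and 12.5% to 30.4% in RepN, overlapped among all replicates, so no difference in Jund was detectable at this depth. These intervals cover counting error only.

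Atf3, a stress-induced bZIP gene that can pair with Jun proteins and often represses, was found in 25.0% and 20% of the thinned cells of RepI and RepL, and in 57.8% and 64.0% of those of RepM and RepN. The groups were separated by 38.4 points (difference -38.4, exact permutation p = 0.333). Of the 7086 genes, 0.198% had a lower difference than Atf3, 1.24% than Fos, 1.41% than Fosb, 2.31% than Fosl2, 3.13% than Jun, 3.23% than Junb and 74.2% than Jund.

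The plates of RepI lay within 10 points of each other for 6 members and further apart for Junb. On C114 and C118, Fos was found in 62.7% and 70.6% of thinned cells, Jun in 49.0% and 47.1%, Atf3 in 25.5% and 23.5%, Fosl2 in 25.5% and 17.6%, and Junb in 54.9% and 76.5%. For 6 members both 38wUW plates lay above all 3 of the 38w plates, as they did for 20.4% of the 7086 genes, but for Junb the gap was small, with 76.5% on C118 and 78.1% on C128. The batch names in the labels disagree on C128 and C129. Some place C128 with C114, and C129 with C118 and C119, while others swap C128 and C129. Because the plates of the groups did not overlap for these 6 members, the same order follows under either pairing. That order is therefore not a test of batch. Plate C118 had the highest median mitochondrial share of any plate (33.8%). Its Fos and Junb shares were the highest of the 38w plates and its Atf3 share lay between those of C114 and C119, and the part of the mitochondrial share in these values was not tested.

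**Figure D1:**
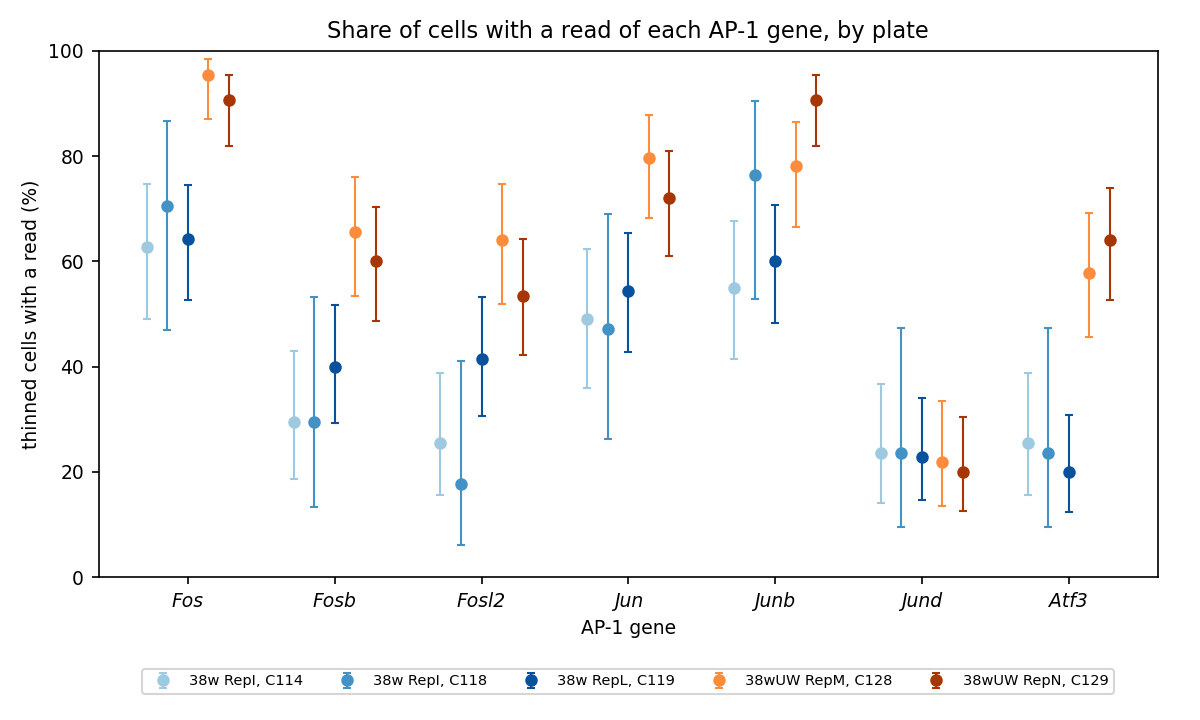
Share of thinned cells (20000 reads each, y axis in percent) with at least 1 read of each AP-1 gene (x axis), with 1 point a plate and 95% Wilson intervals as bars. For Fos the 38w plates (blue) sit between 62.7% and 70.6% and the 38wUW plates (orange) at 90.7% and 95.3%, whereas the 5 points of Jund lie between 20% and 23.5%.

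The gap in genes per cell between groups was narrowed, though not closed, by a choice of cells. In the 172 thinned cells with 2000 to 2800 genes, where the replicates' medians were 2314 and 2369 genes in 38w and 2472 and 2427 in 38wUW, the differences were -37.9 percentage points for Atf3, -29.2 for Fos, -24.6 for Jun, -23.9 for Junb, -21.6 for Fosb and -16.8 for Fosl2, and the median over all genes was -1.01. Jund differed by 0.538 points in these cells. The Fosl2 difference was the one most reduced by this choice of cells. On the full, unthinned counts Fosl2 differed by -9.72 points and Junb by -12.7, against -36.2 for Fosb and -37.1 for Atf3.

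Single cells differed in how many of the members they held. How far such counts follow from the share of each member, and from the higher number of genes in 38wUW cells, was not tested. Of the 7 genes, a thinned 38w cell held a median of 2 and a 38wUW cell a median of 5. At most 1 member was found in 33.8% and 27.1% of the 38w replicates' cells and in 6.25% and 5.33% of the 38wUW replicates' cells. None of the 7 was found in 15 of 138 cells of 38w and in 1 of 139 cells of 38wUW. At least 5 members were found in 25.0% and 27.1% of the 38w replicates' cells and in 57.8% and 57.3% of the 38wUW replicates' cells. Without the libraries with a suffix, at most 1 member was found in 35.7% of RepI cells and at least 5 in 19.6%, and the medians were 2, 3, 5 and 5. Cells with 5 or more members were thus present on every plate, and the 38w plates held in addition many cells with few.

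**Figure D2:**
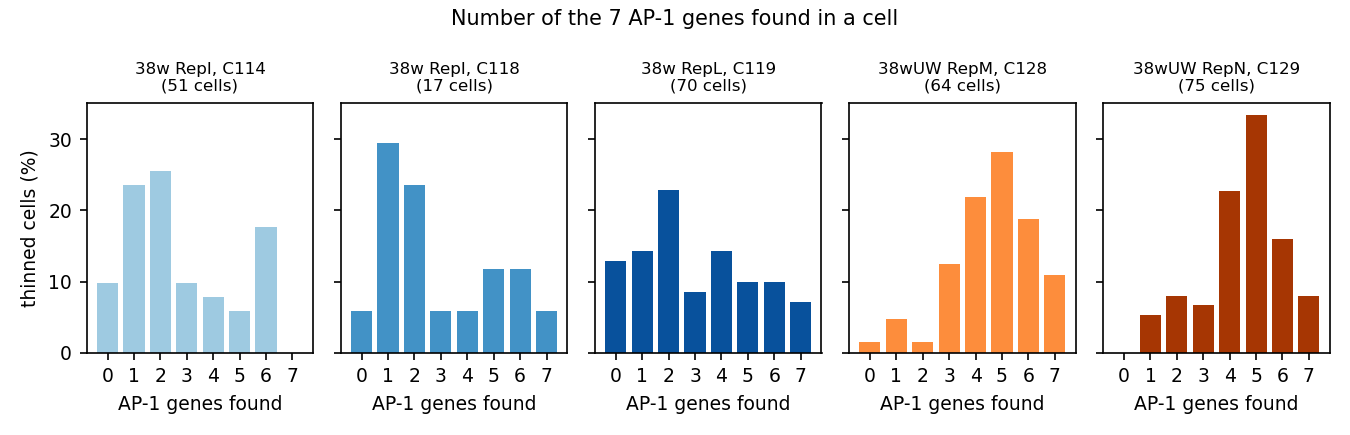
Number of the 7 AP-1 genes with a read in a thinned cell (x axis) against the percent of thinned cells of the plate (y axis), with 1 panel a plate. On C114 the tallest bar is at 2 genes (25.5% of 51 cells) with a further bar at 6 genes (17.6%), and on C129 the tallest bar is at 5 genes (33.3% of 75 cells).

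When counts were summed over the cells of a replicate, the separation was weaker, and a few cells held many of the reads. Fos stood at 620 and 2243 CPM in the 38w replicates RepI and RepL, and at 1942 and 2760 CPM in the 38wUW replicates RepM and RepN, so the groups overlapped. A single RepL cell held 56.8% of that replicate's Fos reads, and after thinning the mean level of Fos per cell was 861 and 1201 CPM in 38w and 1931 and 2483 CPM in 38wUW. The median thinned cell held 3 Fos reads in RepI and 5 in RepL, and 25 and 43 in the 38wUW replicates. The typical 38w cell thus held little Fos, while its highest cells reached the levels of the highest 38wUW cells, at 14400 and 13050 CPM in the 38w replicates against 13200 and 8700 CPM in the 38wUW replicates.

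In summed counts Fosb stood at 47.7, 59.5, 85.9 and 106 CPM in RepI, RepL, RepM and RepN. Fosl2 stood at 19.9, 213, 138 and 103 CPM, and 64.9% of its RepL reads came from 1 cell. Fosb thus kept the groups apart, and Fosl2 did not. Jun stood at 125, 173, 305 and 244 CPM, and Junb at 86.1, 239, 324 and 548 CPM. Jund stood at 13.1, 9.31, 15 and 14.7 CPM, and Atf3 at 52.6, 76.2, 146 and 255 CPM. Both 38wUW replicates lay above both 38w replicates for these 4 genes and Fosb, that is for 5 of 7 members, against 26.2% of the 11760 genes that passed the low-count filter, as all 7 members did.

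In edgeR's quasi-likelihood test on the summed counts, 0 of the 7 members passed an adjusted p of 0.05, beside 0 of 11760 genes (0%). At an unadjusted p under 0.05 in edgeR, 949 of 11760 genes and 0 of the 7 members passed. DESeq2 called 68 genes (0.578%) and 0 members. The log2 fold changes in edgeR (38w minus 38wUW ± SE) were -1.39 ± 0.85 for Atf3 (adjusted p = 0.681), -1.18 ± 0.92 for Junb (adjusted p = 0.734), -0.64 ± 0.85 for Jun (adjusted p = 0.844) and -0.59 ± 0.83 for Fosb (adjusted p = 0.851). Fos (-0.48 ± 1.11, edgeR adjusted p = 0.917), Jund (-0.15 ± 0.995, edgeR adjusted p = 0.972) and Fosl2 (0.18 ± 0.99, edgeR adjusted p = 0.967) had the smallest estimates, and of the 7 members Atf3 and Junb alone exceeded their SE. The median was -0.59 over the members and 0.12 over all genes tested.

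Which 38w replicate was used changed the Fos and Fosl2 estimates. Without RepL, the log2 fold change was -1.58 for Fos, -2.26 for Fosl2 and -1.999 for Junb, and without RepI it was 0.16 for Fos, 1.05 for Fosl2 and -0.63 for Junb. Fosb, Jun, Junb and Atf3 had negative estimates under each of 17 alternative settings. The variation between replicates was large, with a biological coefficient of variation of 0.713 over all genes.

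**Figure D3:**
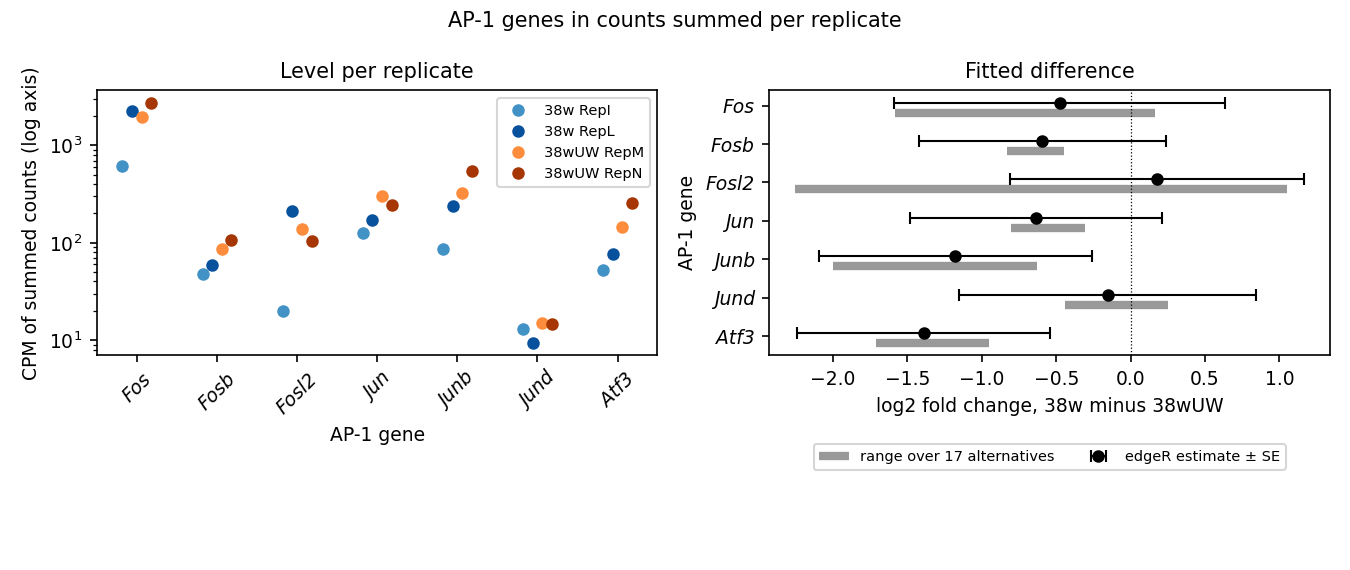
Left, CPM of the counts summed per replicate (log y axis) for each AP-1 gene, with 1 point a replicate. Right, edgeR log2 fold change, 38w minus 38wUW, with its SE (black) and its range over 17 alternative settings (grey bars). The bar of Fosl2 runs from -2.26 to 1.05, and that of Atf3 from -1.71 to -0.95.

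Across the cells of a plate, Fos, Fosb, Jun, Junb and Atf3 varied together, whereas Fosl2 was only weakly related to them. Spearman's rho between log2(CPM + 1) values of thinned cells was computed within each of the 5 plates (17 to 75 cells) and averaged. These values share the library of each cell and many zeros, and are given as a description. Fos had a mean rho of 0.63 with Junb (0.51 to 0.79 over the plates), 0.58 with Fosb, 0.58 with Jun and 0.58 with Atf3. The lowest mean among the pairs of these 5 genes was 0.48, for Jun and Junb. Jund had mean values of 0.26 to 0.36 with these 5 genes, and Fosl2 of 0.08 to 0.17.

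**Figure D4:**
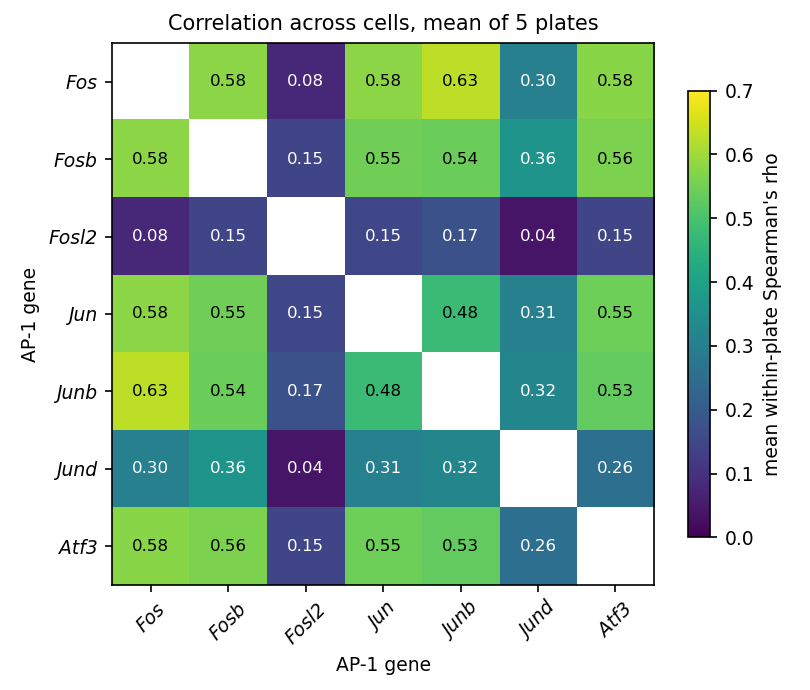
Mean over 5 plates of the within-plate Spearman's rho (colour and number) between each pair of AP-1 genes (both axes) across thinned cells. The 5 genes Fos, Fosb, Jun, Junb and Atf3 give values of 0.48 to 0.63 among themselves, and the row of Fosl2 runs from 0.04 to 0.17.

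Among the 1607 genes compared with Fos, which had a read in at least 25% of thinned cells on every plate, the most alike by mean rho were Junb, Egr1 (0.61), Dusp1 (0.59), Fosb and Jun. Egr1 encodes a zinc finger factor induced by the same stimuli, and Dusp1 a phosphatase that switches off MAP kinases. Egr1 was the gene most like Jun (0.61) and Atf3 (0.59), and it came second for Junb (0.59). For Fosb the 5 most alike were Fos, Jun, Egr1, Junb and Dusp1, and Ier2, a further immediate-early gene, was among the 5 most like Jun (0.44). Atf3, at 20% of the cells of C119, was below the 25% and so was not a candidate in these lists, although its mean rho was 0.56 with Fosb and 0.55 with Jun. Fosl2, at 17.6% of the cells of C118, and Jund, at 20% to 23.5% over the plates, were likewise not candidates. The median rho over all compared genes was between -0.01 and 0.03 for each member, and the 95th percentile between 0.13 and 0.19. For Fosl2 that percentile was 0.134. Its mean rho lay above this with Fosb (0.145), Jun (0.149), Junb (0.173) and Atf3 (0.147), but not with Fos (0.08).

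Fosl2 was instead most like Rbm39, which encodes a splicing factor (0.27), followed by Tmem65 (0.24), Ankrd17 (0.23), Lratd1 (0.22) and Gas7 (0.22), with no AP-1 gene among these. Jund and Atf3 were not candidates there, and their mean rho with Fosl2 was 0.04 and 0.15. The 5 genes most like Jund were Fosb (0.36), Junb (0.32), Dusp1 (0.32), Jun (0.31) and Fos (0.30). The values for Jund varied widely, from 0.17 to 0.83 with Fosb, and the highest came from the 17 cells of C118. In such sparse counts these weak relations are not read further.

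The relation of the 7 members' summed level to cell quality measures within plates varied between plates, and its part in the group differences was not tested. Its rho with the reads of a cell was between -0.27 and 0.13 over the 5 plates, and with the mitochondrial share between -0.23 and 0.47. With the ribosomal protein share it was -0.42 on both RepI plates and between -0.19 and 0.25 on the others. With the number of genes per thinned cell it was 0.48 on C114 and -0.50 on C118. The summed level adds the members' CPM without weights, so Fos has the largest part in it. Over all cells Fos stood at 1927 CPM, against 327 CPM for Junb, the next highest member.

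Cells were also scored within plates for markers of skin compartments, none of them an AP-1 gene, and 195 of the 277 thinned cells were assigned to the class that led by at least 0.25 in mean z-score. Such classes are ranges of a score and not cell types, and 60 of the 195 cells led by less than 0.5. The classes held 55 basal, 39 interfollicular differentiated, 41 infundibular and duct differentiated, 31 bulge and 22 sebocyte-like cells, and 7 cells of the junctional zone class were too few to describe. None of the 6 basal markers was among the 10 genes that led the basal class by fold (Serpinb7, Ackr3 and Sparc came first), so this class is named by its score only.

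Both 38wUW replicates lay above both 38w replicates for 5 of 7 members in basal cells, where 19.8% of the genes found in at least 10% of the cells of the class did so, and for 6 of 7 in interfollicular differentiated cells, where 18.9% of genes did so. In infundibular and duct cells this held for 1 of 7 members and 29.4% of genes. These counts were the same without the libraries with a suffix. In the basal class Fos was found in 8 of 14 RepI cells and 4 of 17 RepL cells (57.1% and 23.5%), against 9 of 10 RepM cells and 12 of 14 RepN cells (90.0% and 85.7%). Jun was found in 35.7% and 23.5% of the 38w basal cells and in 100% and 64.3% of the 38wUW basal cells. The mean level of the 7 members together was 582 and 197 CPM in the 38w replicates and 2290 and 3011 CPM in the 38wUW replicates. The 5 members that kept the replicates apart in this class were Fos, Fosb, Jun, Junb and Atf3.

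In interfollicular differentiated cells, which express the suprabasal keratins Krt1 and Krt10, Fos was found in 4 of 12 RepI cells, 10 of 14 RepL cells, and all 7 RepM and 6 RepN cells. Atf3 was found in 0 of 12 RepI cells and 0 of 14 RepL cells, which allow shares of up to 25% and 21.4% by counting error in thinned cells alone, and in 3 of 7 RepM and 5 of 6 RepN cells. Fosl2 was found in 16.7% and 14.3% of the 38w cells of this class and in 57.1% and 66.7% of the 38wUW cells. The members' summed mean level was 138 and 632 CPM in the 38w replicates and 2179 and 4042 CPM in the 38wUW replicates, so the groups did not overlap.

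In infundibular and duct differentiated cells, Fos was found in 87.5% and 100% of the 38w replicates' cells and 92.9% and 91.7% of the 38wUW replicates' cells. Jun was found in 87.5%, 71.4%, 78.6% and 75.0% in the same order, and Atf3 in 50%, 28.6%, 35.7% and 58.3%. The groups overlapped for these genes, and Fosl2 was the only one of the 7 members whose replicates did not overlap in this class with all libraries, at 50% and 57.1% in 38w against 92.9% and 75.0% in 38wUW. Without the libraries with a suffix (38 cells), Fosb and Jun also ceased to overlap there, with 38w the higher, as for 6.66% of 7210 genes. In bulge cells Jun and Fosb had the opposite order: Jun was found in 75.0% of 4 RepI cells and 100% of 8 RepL cells against 42.9% of 7 RepM cells and 58.3% of 12 RepN cells. Both 38w replicates lay above both 38wUW replicates for these 2 of 7 members and for 12.6% of the genes of the class. The members' summed mean level was 5862 and 6169 CPM in the bulge cells of 38w and 4643 and 3979 CPM in those of 38wUW. The medians were 2950 and 5675 CPM against 2950 and 2400 CPM, so by median RepI did not exceed RepM. In sebocyte-like cells, Fos was found in 2 of 3, 5 of 7, 4 of 4 and 7 of 8 cells of the 4 replicates. Whether the group difference itself differs between classes was not tested, and with 3 to 17 cells of a class in a replicate these shares are imprecise.

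The bulge, basal and interfollicular differentiated classes stood further from the other cells on C114 and C119 than on the 38wUW plates. Bulge cells exceeded the other cells of their plate in the members' summed level by a log2 ratio of 2.61 on C114 and 2.25 on C119, and by 0.68 on C128 and 0.13 on C129. The value of C114 came from 3 cells with a mean of 6117 CPM and a median of 800 CPM, so 1 cell carried it, whereas the 8 cells of C119 had a mean of 6169 and a median of 5675 CPM. Fos alone gave 4850 CPM of the C114 mean and 4138 CPM of the C119 mean. In the basal cells of C119 it gave 20.6 of 197 CPM. Basal cells fell below the others, with log2 ratios of -2.20 on C114 and -3.59 on C119, against -0.50 on C128 and -0.36 on C129. C118 gave -0.51 for basal cells. Interfollicular differentiated cells had log2 ratios of -3.36, -4.24 (3 cells) and -1.77 on C114, C118 and C119, against -0.56 and 0.14 on C128 and C129. Infundibular and duct cells did not follow this, at 0.33 and 0.26 on C114 and C119, and -0.82 and -0.30 on C128 and C129. Sebocyte-like cells gave 0.46 on C119, and 0.49 and 0.19 on C128 and C129. Giving equal weight to the 4 classes with at least 5 cells in every replicate (basal, interfollicular differentiated, infundibular and unassigned) left the share differences of all cells at -29.5 percentage points for Fos, -30.7 for Jun, -40.9 for Atf3 and 1.36 for Jund. This weighting leaves out the bulge and sebocyte-like cells and uses classes scored within plates. The part of class makeup in the differences was otherwise not tested.

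**Figure D5:**
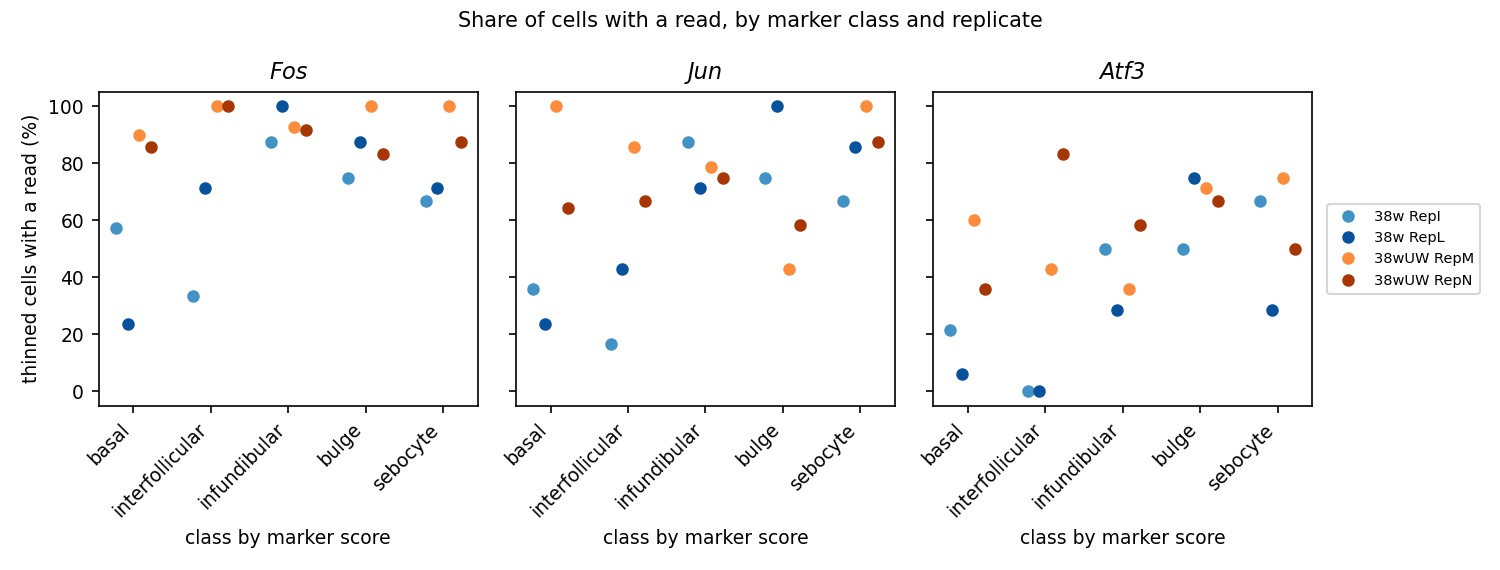
Share of thinned cells with a read of Fos, Jun and Atf3 (panels, y axis in percent) by marker class (x axis), with 1 point a replicate. In the basal and interfollicular classes the 38w points (blue) lie below the 38wUW points (orange) for each of the 3 genes, and in the infundibular class they overlap.

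Other genes of the pathway were read from lists of related genes. Over all 11760 genes tested, edgeR called 0. At an unadjusted p under 0.05 in edgeR, 445 were lower and 504 higher in 38w. A negative log2 fold change was found for 5484. Apart from Egr1, the genes named from these lists were picked for large fold changes and for groups that did not overlap in summed counts. Neither feature is therefore a result. Of 29 tested immediate-early genes outside the family, 0 were called in edgeR, 4 were lower and 1 was higher in 38w at an unadjusted p under 0.05, and 23 had a negative log2 fold change, with a median of -0.55 against 0.12 over all genes. By shares of thinned cells, 17 of 23 such genes were above in both 38wUW replicates, against 37.1% of all genes, with a median difference of -15.5 percentage points. Egr1 was found in 41.2% and 57.1% of 38w cells and in 85.9% and 92.0% of 38wUW cells. Dusp6, which encodes a MAP kinase phosphatase, stood at 9.56 and 22.9 CPM in RepI and RepL and at 131 and 77.7 CPM in RepM and RepN (log2 fold change -2.45 ± 0.92, edgeR adjusted p = 0.617). Klf6, a zinc finger factor, stood at 89.5 and 113.9 CPM against 412 and 387 CPM (-1.73 ± 0.87, edgeR adjusted p = 0.637). Plk2 (-2.83 ± 1.10) and the nuclear receptor gene Nr4a1 (-2.06 ± 0.96) were lower in the same way, both at an edgeR adjusted p of 0.617. Gadd45b, a stress-response gene, had the opposite sign (3.27 ± 1.15, edgeR adjusted p = 0.617), with 63.9 CPM in RepI but 7.41, 5.48 and 3.40 CPM in the other replicates, so that RepI alone stood far above the rest.

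Upstream of AP-1, 0 of 18 tested kinases and factors were called, and 0 had an unadjusted p under 0.05 in edgeR. A negative log2 fold change was found for 8 (median 0.09), near the share over all genes (5484 of 11760, median 0.12). By shares, 9 of 15 were above in both 38wUW replicates, against 37.1% of all genes. Mapk8, which encodes the Jun kinase JNK1, stood at 4.42 and 24.0 CPM in 38w and 44.0 and 64.7 CPM in 38wUW (-1.71 ± 0.98, edgeR adjusted p = 0.666). That its groups did not overlap follows from the rule that picked the named genes. Mrtfb (-1.63 ± 0.93), Elk4 (-0.99 ± 0.88) and Map2k4 (-0.95 ± 0.87) had the same sign.

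Of 10 tested genes with known AP-1 sites, 0 were called, and 1 was lower at an unadjusted p under 0.05 in edgeR (445 of 11760 over all genes). The median log2 fold change was -0.70, against 0.12 over all genes. Hbegf, an EGF receptor ligand released by keratinocytes, was found in 10.3% and 7.14% of thinned 38w cells and in 43.8% and 53.3% of 38wUW cells, which differ by -39.8 percentage points (exact permutation p = 0.333). In summed counts it stood at 34.1, 57.1, 58.1 and 211 CPM (-1.31 ± 0.90, edgeR adjusted p = 0.707). Ivl, which encodes involucrin of the cornified envelope, stood at 10.5 and 2.24 CPM in 38w and 39.5 and 42.9 CPM in 38wUW (-2.42 ± 1.03, edgeR adjusted p = 0.617). Cd44, a hyaluronan receptor, stood at 302 and 305 CPM against 673 and 670 CPM (-0.90 ± 0.91, edgeR adjusted p = 0.799).

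Among other bZIP partners the signs were mixed. Of 9 tested, 0 were called, and 1 was lower at an unadjusted p under 0.05 in edgeR (445 of 11760 over all genes). A negative log2 fold change was found for 4 (median 0.55), against 5484 of 11760 over all genes (median 0.12). Maf, which encodes a large bZIP factor, was found in 42.6% and 44.3% of 38w cells and in 25.0% and 26.7% of 38wUW cells (17.6 percentage points), and Atf7 in 25.0% and 37.1% against 46.9% and 53.3% (-19.0 percentage points), with an exact permutation p = 0.333 for each. Of 6 heat shock genes, 0 were called, 0 had an unadjusted p under 0.05 in edgeR and 3 had a negative log2 fold change (median 0.06). Hspa1b, an inducible Hsp70 gene, stood at 55.8 and 108 CPM in 38w and 293 and 158 CPM in 38wUW (-1.23 ± 0.86, edgeR adjusted p = 0.713), whereas Dnajb1, its co-chaperone, stood at 152 and 199 CPM against 96.7 and 134 CPM (0.85 ± 0.83, edgeR adjusted p = 0.789). By shares of thinned cells Dnajb1 had the other sign and its groups overlapped, at 58.8% and 37.1% in 38w against 57.8% and 53.3% in 38wUW (-7.59 percentage points). Hspa1a (-0.32 ± 0.87) and Hsp90aa1 (-0.28 ± 0.86) differed by less than their errors.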

How the data were processed

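Tomato-positive tail keratinocytes were sorted into plates and sequenced by Smart-seq2 (25 cycles of PCR, single-end 75-base reads). The deposited values are estimated counts for each gene in each cell, which the authors made with Salmon 0.13.1 for mm10/GRCm38 per the submitters' processing notes; 3.60% of the values were not whole. Cells were mapped to groups by the labels' time and replicate. Counts were summed per replicate, rounded, filtered with filterByExpr, scaled by TMM and tested with edgeR 4.0.16's quasi-likelihood test, with Benjamini-Hochberg adjustment over 11760 genes. DESeq2 1.42.0 was an alternative. Shares of cells used 277 cells thinned to 20000 reads and an exact permutation test over replicates (Python 3.11.15), and shares carry 95% Wilson intervals. PCR duplicates without molecular identifiers are not independent molecules. Correlations used log2(CPM + 1). The computations were tested on simulated data. The members, lists and rules were chosen with earlier results of these data known. All 7 members are named. From each related list, the 5 genes with the highest absolute log2 fold change were named among those whose log2 CPM averaged 4 or more, with groups that did not overlap, and for each member the 5 genes most correlated with it. Of the genes this rule gives, 1 is not reported here. Egr1's shares were named after its values were seen. Alternatives changed scaling, filters, units, cells and replicates.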

Additional observations from a re-analysis of the deposited data

How the results depend on the processing

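Of the 17 alternative settings for the fit, each called 0 of the 7 members. The number of genes called over the whole table was 0 in edgeR and moved to 68 in DESeq2, 1 without the low-count filter, 1 and 4 with plates as units and the batch tag or the alternative batch tag as a block, and 0 to 1215 when 1 replicate was left out, with 169 when it was RepI and 1215 when it was RepL. The lone replicate is then assumed to vary like the others. Of the members' log2 fold changes under alternatives, 14 changed sign. Leaving out 1 replicate gave -1.58 to 0.16 for Fos, positive without RepI, -2.26 to 1.05 for Fosl2 and -0.44 to 0.16 for Jund. Fosl2 was at -0.61 in thinned cells, -0.43 with equal weight per cell, -0.22 with 5 plates as units, -0.89 and -0.92 with the batch blocks, and -2.26 and -0.02 without RepL and RepN. Jund was at 0.23 in thinned cells, 0.19 with plates as units, 0.17 with either batch block, 0.25 with RepI from C118 only and 0.16 without RepL. Of 77 share differences, 2 changed sign, both for Jund: -2.11 percentage points for at least 3 reads and -0.55 without the 15 libraries that carry a suffix in their names. With cells thinned to 10000 reads, the Fosl2 difference shrank to -15.3 percentage points and its groups overlapped. The sebocyte class ratio moved from 0.38 to 0.66 with a margin of 0, and the other 14 class ratios and all 63 correlations moved by less than their spread over plates. The cells with 2000 to 2800 genes, the equal weight per class and the counts by class without the suffix libraries were chosen after seeing the data. The groups share no replicate number, so the batch tags gave the blocks that could be fitted. Leaving out the 15 libraries with a suffix kept 6 of 7 members apart over all cells. The limits are 2 replicates a group, plates that hold 1 group each, wells with 2 libraries, few cells per class and the small number of Jund reads.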
